A study of Mus musculus with 8 samples.

Results

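Complement transcripts were followed through the gene expression profiles of bone marrow-derived dendritic cells (BMDCs) from WT and GEF-H1-/- mice, by taking the rows of the deposited expression table whose gene symbol was C1qa, C1qb, C1qc, C3, C3ar1, C5ar1, Cfb or Cfp. These are 8 of 23356 genes in the table, and all 8 were among the 11397 genes that reached 1 FPKM in a group or more. FPKM is the number of fragments of a gene corrected for transcript length and library size, so levels may be compared between genes.

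The cells were grown for 6 days from marrow of WT or Arhgef2 knockout mice, both labelled as C57BL/6 background (C57BL/6N in the study's methods), with GM-CSF and IL-4 (10 ng/ml each) in every group. Each genotype was then left untreated or received ansamitocin-P3, a maytansine-type compound that destabilizes microtubules, at 100 nM, and all cells were taken at 5 h. This gave 4 groups of 2 libraries, the untreated ones being the controls: untreated WT, treated WT, untreated GEF-H1-/- and treated GEF-H1-/- DCs. Arhgef2 encodes GEF-H1, a guanine nucleotide exchange factor for RhoA that microtubules hold inactive, and the design asks how far the drug acts on gene expression through it. The knockout is carried by the whole mouse and so was present throughout the culture. The labels give no age and do not say whether the 2 libraries of a group came from separate mice or cultures. For all experiments, the methods of the study speak of sex-matched mice, both males and females, with an age range in weeks that is adult. They describe BMDCs as the floating and loosely attached cells taken on the last day of culture.

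In the deposited table the 2 libraries of a group are combined by Cuffdiff into 1 FPKM value per gene, which comes with the bounds of a 95% interval. There is therefore no SD, no test against the spread between libraries and no p-value for any difference given here, and the Cuffdiff interval stands as the error. Over the 8 genes and 4 groups its width ran from 38.9% to 74.1% of the FPKM, with a median of 47.4%. The number of fragments behind a value is not known from FPKM. Arhgef2 itself stood at 42.3 FPKM (34.5 to 49.98) in untreated and 45.9 (36.9 to 54.9) in treated WT DCs, and at 4.59 (3.54 to 5.63) in untreated and 4.16 (3.22 to 5.11) in treated GEF-H1-/- cells. The columns for WT cells carry no genotype in their names and were assigned by elimination, and the Arhgef2 levels run the way this assignment requires. The sum of FPKM over all genes differed between groups, from 599331 in untreated GEF-H1-/- to 739523 in treated WT DCs, and calls that change when the groups are rescaled to a common total are given beside the result.

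Complement is a cascade of plasma and cell surface proteins that tags particles for uptake, recruits leukocytes and lyses membranes. C1q, built from equal numbers of the A, B and C chains encoded by C1qa, C1qb and C1qc, starts the classical pathway. The alternative pathway turns on C3, on the serine protease factor B (Cfb), which together with a C3 fragment forms the enzyme that cleaves more C3, and on properdin (Cfp), which stabilizes that enzyme. C3ar1 and C5ar1 are the G protein-coupled receptors for the small fragments C3a and C5a. Most complement proteins in blood come from the liver, while macrophages and dendritic cells are major sources of C1q and myeloid cells of properdin.

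All 8 genes lie on the minus strand. The C1q genes form a cluster on chromosome 4 (C1qb at chr4:136880145-136886177, C1qc at chr4:136889802-136892914 and C1qa at chr4:136895916-136898844, coordinates of the deposited table, mm10). C3 (chr17:57203973-57228136) and Cfb (chr17:34856374-34862514) share chromosome 17, Cfp is on the X chromosome (chrX:20925535-20931524), C3ar1 on chromosome 6 (chr6:122847140-122856157) and C5ar1 on chromosome 7 (chr7:16246743-16259540). Promoter windows were available for 6 of the 8 genes (C1qb, C1qc, C3, C3ar1, C5ar1 and Cfp), from RefSeq with the build GRCm38.p6. Of these, 4 are printed: C1qb, whose transcript was higher without GEF-H1, C5ar1, whose transcript was higher with the drug, and C3ar1 and C3, which hold a motif that was searched for. Each window runs 5' to 3' on the gene's strand from position -134 to -5 relative to the RefSeq start, and capitals mark the motif match (chr4:136886205-136886334 for C1qb, chr7:16259343-16259472 for C5ar1, chr6:122856162-122856291 for C3ar1 and chr17:57228141-57228270 for C3).
C1qb: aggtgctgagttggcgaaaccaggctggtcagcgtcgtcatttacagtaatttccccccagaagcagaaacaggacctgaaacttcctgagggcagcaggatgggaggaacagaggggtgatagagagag
C5ar1: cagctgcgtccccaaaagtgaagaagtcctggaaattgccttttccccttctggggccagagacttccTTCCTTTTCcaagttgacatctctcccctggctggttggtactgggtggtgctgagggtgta
C3ar1: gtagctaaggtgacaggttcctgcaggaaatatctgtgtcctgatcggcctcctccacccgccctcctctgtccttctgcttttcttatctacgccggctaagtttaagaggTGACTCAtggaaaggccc
C3: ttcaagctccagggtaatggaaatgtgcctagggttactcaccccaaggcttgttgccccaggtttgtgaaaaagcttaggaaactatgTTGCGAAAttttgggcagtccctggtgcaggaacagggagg
The windows differ in which of the searched motifs they hold. Across the 250 bases before the RefSeq start, on both strands, C5ar1 held the interferon response element GAAANNGAA at -66 to -58, read on the opposite strand as printed. The RefSeq start of C5ar1 lies downstream of the start of the locus given above, at chr7:16259540. The printed C5ar1 window and this match therefore fall inside that locus, whereas the windows of C1qb, C3ar1 and C3 lie outside theirs. C3ar1 held the AP-1 motif TGANTCA at -22 to -16, and C3 the C/EBP motif TTGCNNAA at -45 to -38. Of all 32851 promoters, 7.13%, 6.75% and 9.56% held these motifs. None of the 6 promoters held the NF-kappaB motif (GGGNNTTCC, which includes every GGGNTTTCC, in 4.98% of all promoters), the CRE motif TGACGTCA (1.55%) or the GAS motif TTCNNNGAA (7.02%). The C1qb window held none of the 6 motifs. These matches describe letters in a window and say nothing about binding.

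Differences are given on the scale of log2(FPKM + 1), on which genes of low FPKM change less than their FPKM does, with an error carried over from the Cuffdiff intervals. A gene was counted as higher or lower when this value was over 1 or under -1, while a fold is the plain ratio of FPKM. Between untreated GEF-H1-/- and untreated WT DCs, 3 of the 8 genes were higher (C1qa, C1qb and C1qc), where 1.26% of the 11397 genes were, and 1 was lower (Cfb), where 0.614% were. The C1q genes lie in a single cluster, so their calls may not be independent of each other. The 8 genes were chosen with earlier results of these data known. After ansamitocin-P3, 5 of the 8 passed the threshold, where 4.06% of all genes did in either direction: C1qa, C1qb and C1qc were again higher in GEF-H1-/- DCs, and Cfb and C5ar1 were lower. The drug moved fewer of them: in WT DCs 1 gene was higher, C5ar1 (background 3.66%), and 0 were lower (1.28%), and in GEF-H1-/- DCs 0 of 8 passed the threshold (1.08% in either direction). The drug effect in GEF-H1-/- DCs minus that in WT DCs passed the threshold for 0 of 8 (1.90%). The medians over the 8 genes were 0.41 for the control genotypes, 0.53 for the treated genotypes, -0.07 for the drug in WT and -0.03 in GEF-H1-/- DCs, against -0.01, -0.03, 0.00 and -0.01 over all filtered genes. Rescaled to a common total, the median of the 8 was -0.34 for the drug in WT and 0.79 between the treated genotypes, and that of all filtered genes -0.25 and 0.21.

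A second criterion asked whether the Cuffdiff intervals of the groups lay apart. This held for 4 of the 8 genes between the control groups, where 4.70% of all genes with usable intervals were apart, and for 6 of 8 between the treated groups (13.8%). Between untreated and treated cells it held for 1 of 8, C5ar1, in WT DCs (16.9%), and again for 1 of 8, C5ar1, in GEF-H1-/- DCs (3.74%). The 4 genes apart between the control groups were the C1q genes and Cfb, and C3ar1 and C5ar1 joined them between the treated groups.

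**Figure D1:**
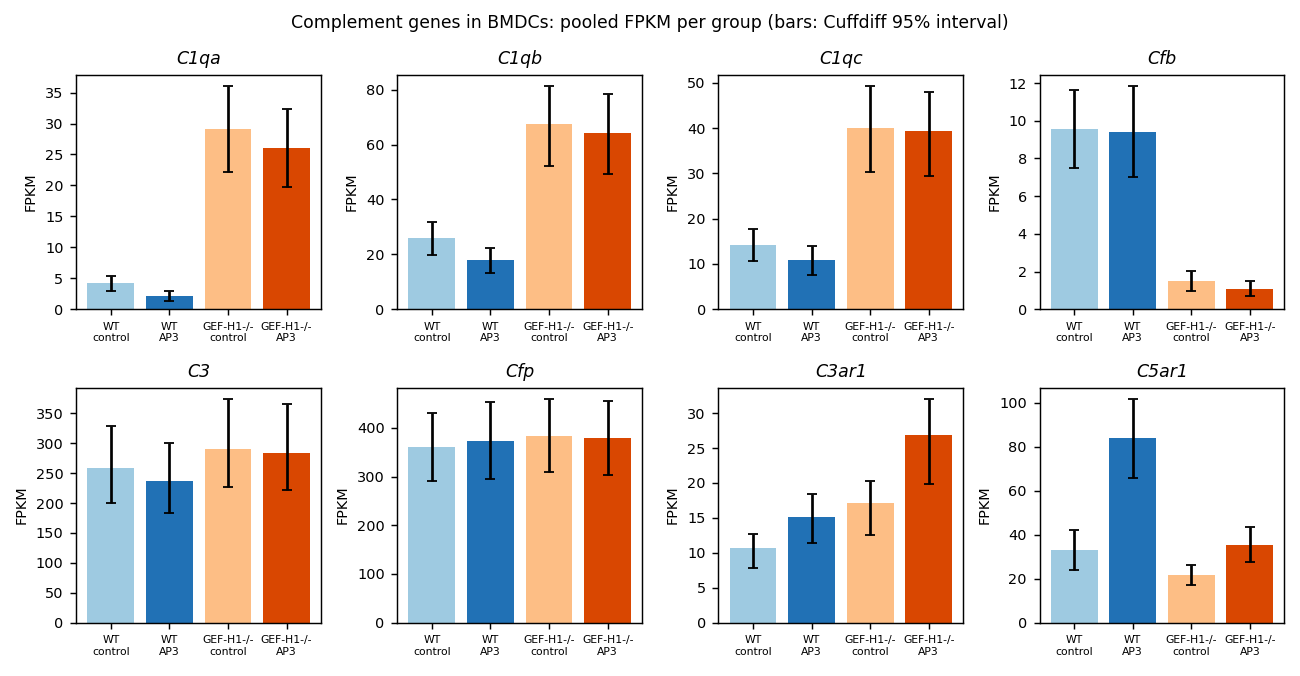
FPKM of the 8 complement genes in untreated and ansamitocin-P3-treated (AP3) WT and GEF-H1-/- DCs, on linear axes from 0 that differ between panels; bars are the value Cuffdiff gave for the 2 combined libraries and whiskers its 95% interval. The C1q genes are high and Cfb is low in both GEF-H1-/- groups, C5ar1 is highest in treated WT DCs at 83.9 FPKM, and C3 and Cfp stand level across the groups.

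All 3 C1q genes were higher in GEF-H1-/- than in WT DCs, with and without the drug. C1qa, the A chain, was at 4.22 FPKM (2.95 to 5.45) in untreated and 2.16 (1.35 to 2.95) in treated WT DCs, and at 29.2 (22.2 to 36.1) in untreated and 26.1 (19.7 to 32.4) in treated GEF-H1-/- cells. Both GEF-H1-/- values stood far above both WT values with no overlap of intervals. The difference was 6.92-fold between the control groups, a log2 value of 2.53 (2.05 to 3.01), and 12.1-fold between the treated groups, a log2 value of 3.10 (2.60 to 3.60). These placed C1qa 24th and 21st from the highest of the 11397 genes. In terms of level, C1qa went from percentile 23.0 of the filtered genes in untreated WT to percentile 74.1 in untreated GEF-H1-/- DCs. In bulk samples such as these, fewer cells of a type and less RNA per cell cannot be told apart, for this and for the other differences.

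C1qb, the B chain, was at 26.0 FPKM (19.9 to 32.0) in untreated WT, 17.9 (13.3 to 22.3) in treated WT, 67.4 (52.4 to 81.4) in untreated GEF-H1-/- and 64.1 (49.3 to 78.5) in treated GEF-H1-/- cells. Again the genotypes did not overlap. The log2 difference between GEF-H1-/- and WT was 1.34 (0.90 to 1.79; 2.59-fold) in untreated and 1.78 (1.31 to 2.25; 3.57-fold) in treated cells. C1qc, the C chain, was at 14.2 (10.5 to 17.8), 10.9 (7.65 to 13.9), 40.1 (30.3 to 49.3) and 39.4 (29.4 to 48.0) FPKM in the same order of groups. Its log2 difference was 1.43 (0.95 to 1.91; 2.82-fold) in untreated and 1.76 (1.26 to 2.26; 3.61-fold) in treated cells, close to that of C1qb, and the intervals of the 2 genes' differences overlapped.

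The 3 chains summed to 44.4 ± 7.13 FPKM in untreated WT, 31.0 ± 5.52 in treated WT, 137 ± 18.7 in untreated GEF-H1-/- and 130 ± 18.5 in treated GEF-H1-/- cells, where the error is the half-width carried from the Cuffdiff intervals. Their proportions were not the same in the genotypes. C1qa made up 9.50% of the sum in untreated and 6.96% in treated WT DCs, against 21.4% and 20.1% in GEF-H1-/- DCs. C1qb made up 58.5% and 57.9% in WT and 49.3% and 49.5% in GEF-H1-/- DCs, and C1qc between 29.3% and 35.2% in the 4 groups. C1qa had the lowest value of the chains in each group, although the proteins are used in equal numbers. Its intervals lay apart from those of C1qc in both WT groups but overlapped them in both GEF-H1-/- groups. The share of C1qa was the one that differed most between the genotypes, and no error was carried over to the shares.

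With the drug, the C1q values were lower in WT DCs, 1.96-fold for C1qa, and nearly level in GEF-H1-/- DCs, and none of these changes passed the threshold. In WT DCs the log2 changes were -0.72 (-1.23 to -0.22) for C1qa, -0.51 (-0.98 to -0.04) for C1qb and -0.35 (-0.87 to 0.16) for C1qc. In GEF-H1-/- DCs the changes were -0.15, -0.07 and -0.02. No intervals lay apart, although those of C1qa in WT DCs only touched, at 2.95 FPKM. The differences between these effects were 0.57 (-0.12 to 1.26), 0.44 (-0.21 to 1.09) and 0.33 (-0.37 to 1.02), and every one of these intervals contained 0. When the groups were rescaled to a common total, the WT changes were -1.02 for C1qa, which passed the threshold, -0.79 for C1qb and -0.63 for C1qc, while the median of all genes in that comparison moved by -0.25. The differences between the drug effects were then 0.82, 0.68 and 0.56, while the median of all genes moved by 0.22. No intervals were computed for the rescaled values, so whether they contain 0 depends on the scaling.

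The annotated neighbours of the C1q cluster in the table did not share its level. Within 50 kb, only Epha8 and Ephb2, both ephrin receptor genes, were listed besides the C1q genes, at no more than 0.00458 and 0.0922 FPKM in a group, and neither passed the filter.

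**Figure D2:**
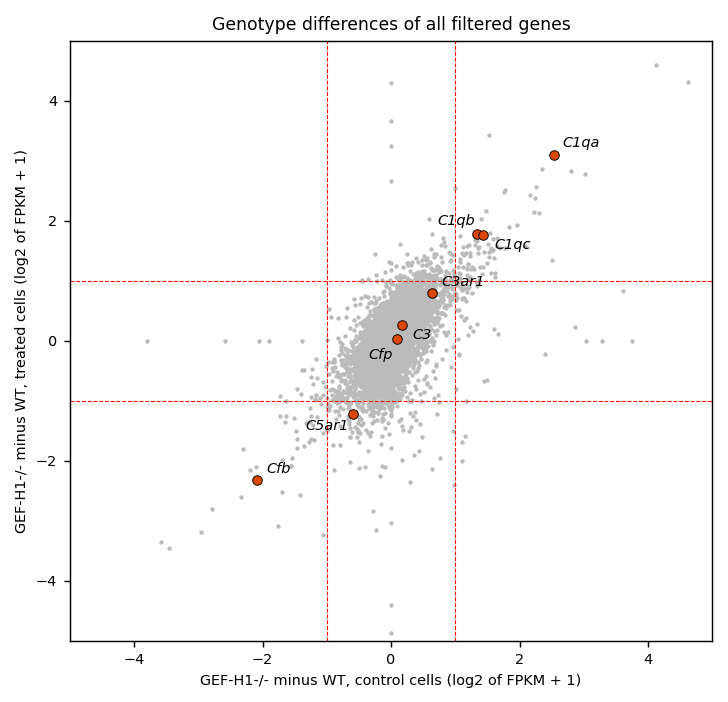
Log2 difference of FPKM + 1 between GEF-H1-/- and WT in untreated cells (x axis) and in treated cells (y axis) for the 11397 filtered genes (grey, of which 38 lie outside the axes of ±5), with the 8 complement genes in orange and the thresholds of 1 and -1 dashed. The x and y values come from separate libraries; C1qa stands at 2.53 and 3.10, C1qb and C1qc lie together at 1.34 and 1.43 on the x axis, and Cfb stands at -2.08 and -2.32.

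Of the alternative pathway genes, Cfb was lower in GEF-H1-/- DCs while C3 and Cfp were not. Cfb was at 9.57 FPKM (7.51 to 11.6) in untreated and 9.43 (7.0 to 11.9) in treated WT DCs, and at 1.498 (0.992 to 2.02) in untreated and 1.09 (0.701 to 1.49) in treated GEF-H1-/- cells. Both knockout values were low and neither interval reached a WT interval. The log2 difference was -2.08 (-2.49 to -1.67; 6.39-fold lower in GEF-H1-/-) in untreated and -2.32 (-2.75 to -1.89; 8.69-fold lower) in treated cells, which were the 20th and 28th lowest values of all filtered genes. Because Cfb was close to 1 FPKM in GEF-H1-/- DCs, the size of this value depended on the pseudocount: with 0.1 FPKM in place of 1 it was -2.60 and -3.01, and with 5 FPKM it was -1.16 and -1.25. With ansamitocin-P3 the changes of Cfb were -0.02 (-0.46 to 0.42) in WT and -0.26 (-0.66 to 0.14) in GEF-H1-/- DCs.

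Cfb lies in a dense part of chromosome 17. The neighbouring genes within 50 kb that passed the filter, 6 in number, had log2 genotype differences from -0.01 to 0.22 in untreated and from -0.15 to 0.64 in treated cells, all smaller in size than that of Cfb and none past the threshold. The locus of Nelfe, which encodes a subunit of the negative elongation factor, ends 1 base from Cfb, and Nelfe was at 25.7, 22.8, 27.0 and 26.8 FPKM in untreated WT, treated WT, untreated GEF-H1-/- and treated GEF-H1-/- DCs. On the other side C2, which encodes the classical pathway counterpart of factor B, was at no more than 0.0776 FPKM in a group. The annotation also holds a protein coding model on the same strand, Gm20547 (chr17:34856412-34882042), that overlaps Cfb and C2 and has no row in the table, and a microRNA gene within Cfb (Mir6972). Fragments of Cfb and of Gm20547 cannot be told apart here, so the values of Cfb may include both.

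C3, the central component that all pathways cleave, was at 259 FPKM (200.1 to 329) in untreated WT, 236 (183 to 300.2) in treated WT, 291 (226 to 374) in untreated GEF-H1-/- and 284 (222 to 366) in treated GEF-H1-/- cells. The intervals of all 4 groups overlapped. Genotype differences were 0.17 (-0.34 to 0.68) in untreated and 0.26 (-0.25 to 0.77) in treated cells on the log2 scale, and drug changes were -0.13 and -0.04. Cfb amounted to 3.70% of the C3 level in untreated WT and 3.99% in treated WT DCs, and to 0.515% and 0.382% in GEF-H1-/- DCs. A microRNA gene, Mir6978, lies within C3 and has no row in the table.

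Cfp, which encodes properdin, was the most abundant of the 8 transcripts in every group, at 361 (290 to 430), 374 (294 to 453), 384 (309 to 459) and 380 (304 to 456) FPKM in untreated WT, treated WT, untreated GEF-H1-/- and treated GEF-H1-/- DCs. No group stood out. Its genotype differences were 0.09 (-0.31 to 0.49) and 0.02 (-0.40 to 0.44), and its drug changes 0.05 in WT (-0.23 when rescaled to a common total) and -0.02 in GEF-H1-/- DCs. C3 and Cfp stood between percentiles 96.3 and 98.1 of the filtered genes in all groups, and the intervals of the 2 genes overlapped within each group while those of C3 lay apart from the next gene in each.

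The anaphylatoxin receptors behaved differently from each other. C5ar1, the receptor for C5a, was at 33.1 FPKM (24.1 to 42.3) in untreated WT, 83.9 (66.0 to 102) in treated WT, 21.5 (16.9 to 26.2) in untreated GEF-H1-/- and 35.5 (27.6 to 43.3) in treated GEF-H1-/- cells. Treated WT DCs stood above the other 3 groups with no overlap, and untreated WT, untreated GEF-H1-/- and treated GEF-H1-/- DCs formed a lower set, in which the intervals of the 2 GEF-H1-/- groups lay apart and both overlapped that of untreated WT DCs. The drug change was 1.32 (0.83 to 1.81; 2.54-fold) in WT and 0.70 (0.27 to 1.13; 1.65-fold) in GEF-H1-/- DCs, so that the change in GEF-H1-/- DCs was, in log2 units, 52.9% of that in WT. The difference between these changes was -0.62 (-1.27 to 0.03), and its interval just contained 0. Among the filtered genes the change of C5ar1 ranked 224th from the highest in WT and 219th in GEF-H1-/- DCs.

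Between the genotypes C5ar1 differed by -0.60 (-1.08 to -0.11) without the drug, with overlapping intervals, and by -1.22 (-1.65 to -0.78) with it, where WT DCs had 2.36 times the level and the intervals lay apart. Rescaled to a common total the latter was -0.97 and just inside the threshold. C5ar2, the second C5a receptor, lies 2588 bases from C5ar1 and showed smaller values in the same directions. It was at 6.94, 9.35, 5.75 and 6.91 FPKM in untreated WT, treated WT, untreated GEF-H1-/- and treated GEF-H1-/- DCs, with drug changes of 0.38 and 0.23. The ratio of C5ar1 to C5ar2 was 4.76 in untreated WT, 8.98 in treated WT, 3.74 in untreated GEF-H1-/- and 5.14 in treated GEF-H1-/- cells. The 4 genes within 50 kb of C5ar1 that passed the filter, C5ar2 among them, changed by -0.19 to 0.38 with the drug in WT DCs.

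C3ar1, the C3a receptor, was at 10.6 FPKM (7.79 to 12.7) in untreated WT, 15.1 (11.4 to 18.5) in treated WT, 17.2 (12.5 to 20.3) in untreated GEF-H1-/- and 26.9 (19.9 to 32.0) in treated GEF-H1-/- cells. The untreated and treated intervals overlapped in each genotype, and only the lowest and the highest group and the 2 treated groups were clearly separate. Its drug changes were 0.47 (0.03 to 0.91) in WT cells and 0.62 (0.18 to 1.06) in GEF-H1-/- cells, and the difference between them was 0.15 (-0.47 to 0.77). Its genotype differences were 0.64 (0.21 to 1.07) in untreated and 0.79 (0.34 to 1.24; 1.78-fold) in treated cells, below the threshold, although the latter was 1.053 when rescaled to a common total. Of these genotype differences of the receptors, that of C5ar1 in treated cells was the one past the threshold. The ratio of C5ar1 to C3ar1 was 3.11 in untreated and 5.54 in treated WT DCs against 1.26 and 1.32 in GEF-H1-/- DCs.

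**Figure D3:**
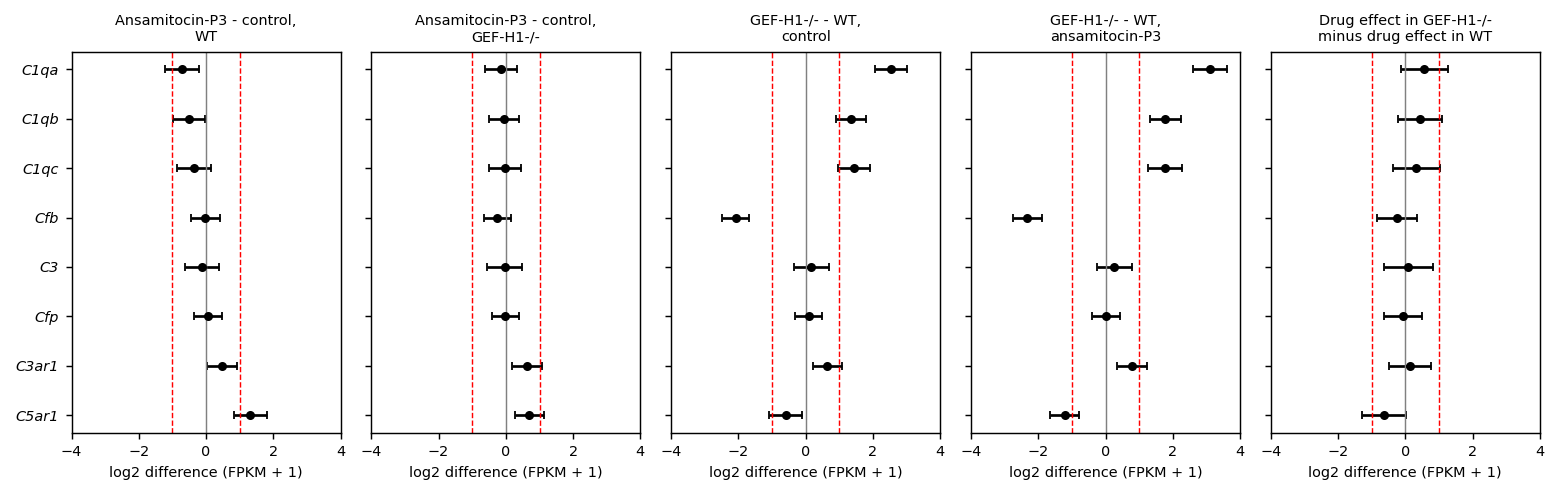
Log2 differences of FPKM + 1 for the 8 genes in the 5 comparisons (panels from left to right: drug in WT, drug in GEF-H1-/-, genotype in untreated cells, genotype in treated cells, difference between the drug effects), with error bars carried from the Cuffdiff 95% intervals and dashed lines at 1 and -1. The genotype panels spread from -2.32 for Cfb to 3.10 for C1qa, the drug panels hold C5ar1 as the one gene past the line at 1.32 in WT, and every bar in the last panel crosses 0.

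The order of levels within a group followed from these differences. In untreated WT DCs it ran Cfp, C3, C5ar1, C1qb, C1qc, C3ar1, Cfb and C1qa, and neighbours had overlapping intervals except between C3 and C5ar1, C1qb and C1qc, and Cfb and C1qa. In untreated GEF-H1-/- DCs it ran Cfp, C3, C1qb, C1qc, C1qa, C5ar1, C3ar1 and Cfb, with gaps between C3 and C1qb, C1qb and C1qc, and C3ar1 and Cfb. C1qa was thus the lowest of the 8 in both WT groups and Cfb the lowest in both GEF-H1-/- groups.

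The rest of the complement system was represented by 46 further genes in the table, of which 12 passed the filter. Most of the cascade stood low in these cells: 34 genes stayed under 1 FPKM in every group, and 6 of them were listed at 0 throughout. Of the 14 other classical and lectin pathway genes 1 passed (Fcnb), of the 8 other alternative and terminal pathway genes 1 passed (C8g, at no more than 1.10 FPKM), and 4 of 16 regulators and 6 of 8 receptors did. The proteases C1ra and C1s, which C1q activates, stayed at or under 0.818 and 0.184 FPKM, and C4a, C4b, C2, Hc (the gene for C5), C6, C7 and C9 were all under 0.2 FPKM.

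Counted by the same threshold, the 12 genes held 0 of 12 past it for the drug in WT (3.66% higher and 1.28% lower among all filtered genes) and in GEF-H1-/- DCs (1.08% in either direction). Between the control genotypes 1 was higher and 1 lower (1.26% and 0.614%), and between the treated genotypes 1 was higher and 2 lower (4.06% in either direction). For the difference between the drug effects 1 was lower (1.90% in either direction). The medians over the 12 genes were 0.30 for the drug in WT, 0.12 in GEF-H1-/-, 0.14 between the control and 0.08 between the treated genotypes, against 0.00, -0.01, -0.01 and -0.03 over all filtered genes. The gene that was higher both times was Serping1, the C1 inhibitor, which blocks the proteases that C1q activates. Serping1 reached 1 FPKM only in the GEF-H1-/- groups. It thus passed the filter through the groups where it was high, and its call largely follows from that. It was listed at 0.0480 and 0.0538 FPKM in untreated and treated WT and at 1.97 (1.39 to 2.53) and 2.23 (1.61 to 2.85) in untreated and treated GEF-H1-/- DCs, log2 differences of 1.502 and 1.62, and is named because it passed the threshold, after its values were seen. The gene that was lower both times was Fcnb, ficolin B, a lectin pathway recognition molecule made by myeloid cells. Fcnb was at 7.91 FPKM (5.97 to 9.84) in untreated WT, 6.86 (5.09 to 8.59) in treated WT, 1.08 (0.626 to 1.54) in untreated GEF-H1-/- and 0.831 (0.459 to 1.21) in treated GEF-H1-/- cells, and its log2 difference was -2.10 in both. It went the way of Cfb, low in both GEF-H1-/- groups.

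Cd93, a surface protein once described as a C1q receptor, was the other gene lower in treated GEF-H1-/- cells, and the gene of these 12 whose drug effect differed most between the genotypes. It was at 4.11 FPKM (3.30 to 4.92) in untreated WT, 8.23 (6.70 to 9.76) in treated WT, 4.30 (3.46 to 5.15) in untreated GEF-H1-/- and 3.54 (2.84 to 4.24) in treated GEF-H1-/- cells. Only treated WT DCs were high. The drug changes were 0.85 in WT cells and -0.22 in GEF-H1-/- cells, and the difference between them was -1.08 (-1.54 to -0.62), which passed the threshold neither with a pseudocount of 5 FPKM nor when rescaled to a common total. Cd55, decay-accelerating factor, which takes apart the enzymes that cleave C3, had a like pattern at 3.44, 7.25, 4.14 and 4.55 FPKM in the same order, with a difference between the drug changes of -0.78 (-1.31 to -0.26) that stayed inside the threshold.

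The remaining regulators and receptors with at least 5 FPKM in a group did not pass the threshold in any comparison. Clu, clusterin, which keeps terminal complexes out of membranes, was at 11.9, 13.3, 21.6 and 26.7 FPKM in untreated WT, treated WT, untreated GEF-H1-/- and treated GEF-H1-/- DCs, and its genotype differences of 0.82 and 0.95 had intervals apart. Cr1l, a membrane regulator related to complement receptor type 1, stayed between 40.5 and 50.2 FPKM. C1qbp, a mitochondrial and surface protein that can bind C1q, was at 139 FPKM without and 84.3 with the drug in WT DCs (log2 change -0.71) and at 146 and 123 in GEF-H1-/- DCs (-0.24). The integrin chains of complement receptors type 3 and 4 were abundant everywhere: Itgam at 169 to 231, Itgax at 102 to 175 and their common chain Itgb2 at 259 to 341 FPKM, with no change past 0.44 on the log2 scale in any comparison.

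**Figure D4:**
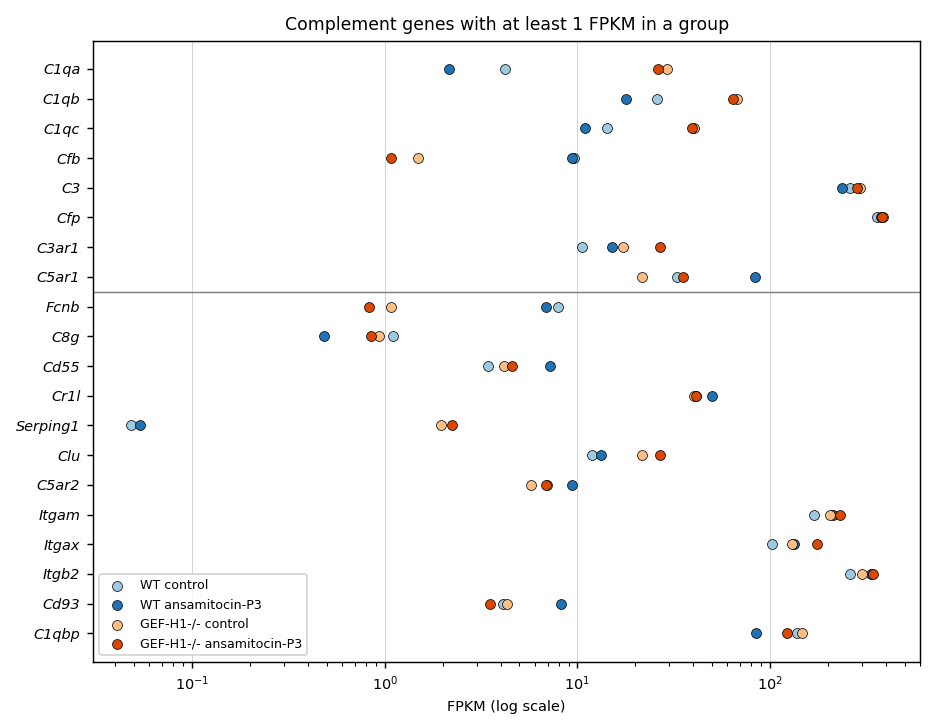
FPKM on a log scale of the 8 complement genes (above the line) and of the other complement genes with at least 1 FPKM in a group (below it), with 1 point for each of the 4 groups and no error bars. The C1q genes and Serping1 have both GEF-H1-/- points to the right, Cfb and Fcnb have both to the left, and C5ar1, Cd55 and Cd93 have treated WT DCs alone at the high end.

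Genes with the nearest pattern were found by the distance between their log2 ratios to untreated WT DCs in the other 3 groups, among 8894 genes with at least 5 FPKM in a group, and 3 are given for each gene that passed the threshold in a comparison. With 4 group values behind each pattern this is a description. Nearest to C1qa were Fn1 (fibronectin, distance 0.464), Fcer1a (a chain of the high-affinity IgE receptor, 0.487) and Mgp (matrix Gla protein, 0.811), and 2 genes in all lay within 0.5. Nearest to C1qb were C1qc (0.226), Anxa8 (an annexin, 0.257) and Mpo (myeloperoxidase, 0.299). Nearest to C1qc were Ear11 (an eosinophil-associated ribonuclease, 0.194), C1qb (0.226) and Ly86 (partner of the Toll-like receptor relative RP105, 0.322). C1qb and C1qc thus found each other, and C1qa was not among the 3 nearest of either.

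Nearest to Cfb were Ifitm6 (an interferon-induced transmembrane family member, 0.166), Fcnb (0.173) and BC100530 (0.574), with 2 genes within 0.5. Ifitm6 was at 57.8, 52.6, 11.9 and 11.0 FPKM in untreated WT, treated WT, untreated GEF-H1-/- and treated GEF-H1-/- DCs. Nearest to C5ar1 were Agpat9 (a glycerol phosphate acyltransferase, 0.156), B3gnt5 (a glycosyltransferase, 0.220) and Rel (an NF-kappaB subunit, 0.227), and 53 genes lay within 0.5. Rel was at 29.2, 65.2, 19.7 and 34.2 FPKM in the same order.

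The cells were checked against marker lists, because C1q genes are also expressed by macrophages, and Fcnb by immature neutrophils. Of the conventional dendritic cell markers 9 of 9 passed the filter and 0 passed the threshold between the control genotypes. Their summed level was 4898 and 6563 FPKM in untreated and treated WT and 4201 and 4698 in untreated and treated GEF-H1-/- DCs. Most of it came from Cd74, at 3676 and 3073 FPKM in untreated WT and untreated GEF-H1-/- DCs. In the same 2 groups Zbtb46 was at 14.8 and 9.09, Itgax at 102 and 129 and H2-Ab1 at 633 and 506 FPKM. Of the macrophage markers 9 of 11 passed the filter and 0 passed the threshold between the control genotypes, with a median difference of 0.10. Their sum was 812 and 714 FPKM in untreated and treated WT and 1289 and 1189 in untreated and treated GEF-H1-/- DCs, most of it from Lyz2 (lysozyme, 557 and 984 FPKM in the control groups). Emr1, which encodes F4/80, was at 35.9 and 36.9 FPKM in untreated WT and untreated GEF-H1-/- DCs, and Cd163 and Timd4, markers of tissue macrophages, were at or under 0.190 and 0.0204 FPKM in every group. Between the treated genotypes the median of the macrophage list was 0.51 and again 0 genes passed the threshold.

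In other lineages some markers passed the threshold between the control genotypes. Of the 9 neutrophil markers found, all of which passed the filter, Mpo (1.23) and Elane (1.11), which belong to primary granules, were higher in untreated GEF-H1-/- DCs. Camp (-3.57), Ltf (-1.46) and Ngp (-1.28), which belong to secondary granules, were lower, and the median over the 9 was -0.09. The summed level was 32563 and 38478 FPKM in untreated and treated WT against 21999 and 22413 in untreated and treated GEF-H1-/- DCs. Most of this sum came from S100a8 (19401 and 10856 FPKM in untreated WT and untreated GEF-H1-/- DCs) and S100a9 (10678 and 10004). Of the 7 basophil and mast cell markers Fcer1a (2.25) and Prss34 (1.047) were higher and 0 lower, the median was 0.80, and the sum was 198 and 203 FPKM in WT against 384 and 368 in GEF-H1-/- DCs. Of the lymphocyte markers 6 of 8 passed and 0 passed the threshold, with sums from 11.5 to 19.2 FPKM. Stromal markers summed to 0.611 and 0.405 FPKM in untreated and treated WT and to 3.86 and 3.21 in untreated and treated GEF-H1-/- DCs. Of the 4 stromal markers 1 passed the filter and was higher (Col1a2, 1.44). Col1a2 reached 1 FPKM only in the GEF-H1-/- groups, so its call largely follows from the filter. Of 5 erythroid markers 1 passed and was lower (Hbb-b1, -1.56), with sums from 2.36 to 11.6 FPKM. The part of these lineages in the C1q, Cfb, Serping1 and Fcnb differences was not tested.

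**Figure D5:**
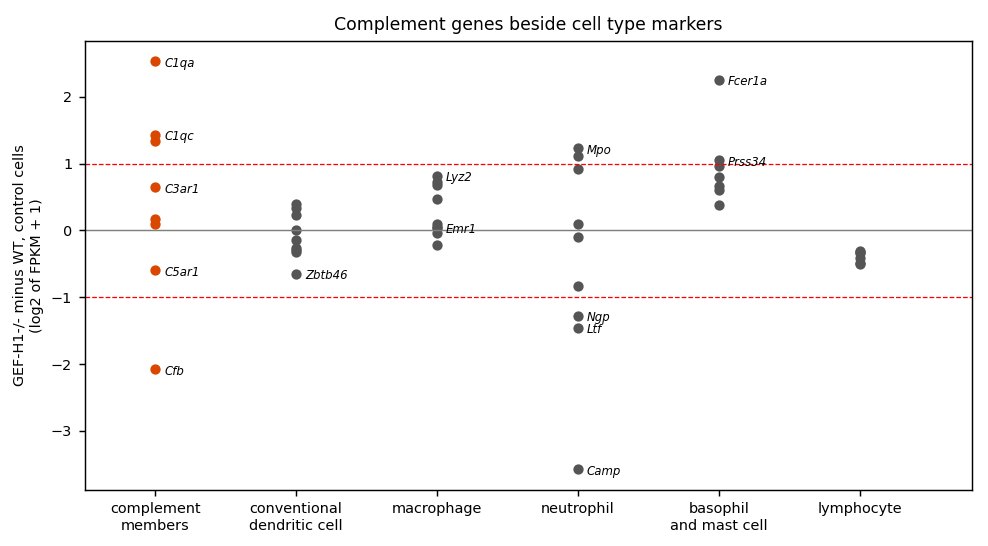
Log2 difference of FPKM + 1 between untreated GEF-H1-/- and untreated WT DCs (y axis) for the 8 complement genes (orange) and for the markers of 5 cell types that passed the filter (grey), 1 point per gene, with dashed lines at 1 and -1. No dendritic cell, macrophage or lymphocyte marker passes a line, while neutrophil markers pass both, from Camp at -3.57 to Mpo at 1.23, and basophil markers pass the upper line with Fcer1a at 2.25.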

How the data were processed

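RNA of 8 BMDC libraries, 2 per group, was measured with strand-specific libraries of polyadenylated RNA. The authors computed FPKM with Cuffdiff 1.05 and combined the 2 libraries of a group; the build in the submitters' processing notes is mm10, and the aligner and annotation behind this table are not given in the sources used here (the study's methods name STAR with GRCm38 for separate read counts, not used here). The deposited table also holds 95% interval bounds and a status per value, and 0 columns of per-sample values were left unused. Here, 107 of 23356 genes whose status was not OK were left out, as were genes under 1 FPKM in every group. Differences of log2(FPKM + 1) were computed from the pooled group values, with the half-widths of both intervals on the log2 scale combined in quadrature, and called over 1 or under -1. No test was possible, since no library has a value of its own. Named genes were the 8 genes, Arhgef2, other complement genes with at least 5 FPKM in a group, the 3 nearest in pattern, lineage markers and overlapping genes; Serping1, C8g, the complement genes under 1 FPKM and the neighbouring genes were named outside this rule, after their values were seen. The members and lists were chosen with earlier results of these data known. Start positions were shifted by 1 base to count from 1. Symbols C1s1, C1s2, Cd55b and Adgre1 were matched to C1s, Gm5077, Daf2 and Emr1; Ly6g was not matched. Python 3.11.15 with numpy 2.4.6 and pandas 2.3.3 was used, and the computation was tested on simulated data. The alternatives were pseudocounts of 0.1 and 5 FPKM, no filter, a filter of 5 FPKM, rescaling to the median ratio or to a common total (TPM), and intervals that lie apart as the call.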

Additional observations from a re-analysis of the deposited data

How the results depend on the processing

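No paired analysis was possible because the deposited values combine the 2 libraries of each group, and for the same reason no library could be left out. Rescaled to a common total, 2 of the 8 genes passed the threshold for the drug in WT DCs in place of 1, and the all-gene median moved by -0.25 there, 0.24 between the treated genotypes and 0.22 for the difference between drug effects. The split of all genes into higher and lower then went from 417 and 146 to 283 and 536 for the drug in WT, from 228 and 235 to 518 and 144 between the treated genotypes, and from 61 and 155 to 152 and 108 for the difference. Of the other complement genes, 2 in place of 0 passed for the drug in WT when 0.1 FPKM was the pseudocount. Between the control genotypes 1 passed in place of 2 with a filter or a pseudocount of 5 FPKM, and between the treated genotypes 1 in place of 3 with that pseudocount. For the difference between drug effects 0 passed in place of 1, with the pseudocount of 5 FPKM or a common total. With a pseudocount of 5 FPKM C1qa differed by 1.89 and 2.12 between the control and the treated genotypes. No value changed direction among the called ones. Across all genes, pseudocounts of 0.1 and 5 FPKM gave 956 and 318 genes for the drug in WT (563 with 1), 212 and 77 in GEF-H1-/- (123), 372 and 101 between the control genotypes (214), 801 and 206 between the treated genotypes (463) and 387 and 123 for the difference (216). The study's methods give a targeted depth, but the depth reached is not known from FPKM. The widest interval for its level among the 8 genes was that of C1qa in treated WT DCs, at 74.1% of the FPKM.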
